A study of Saccharomyces cerevisiae with 144 samples.

Results

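The genes described here are 10 members of the glycolytic pathway of Saccharomyces cerevisiae, chosen by gene identity from 6465 genes in the count tables. They were PGI1 (YBR196C), PFK1 (YGR240C), PFK2 (YMR205C), FBA1 (YKL060C), TPI1 (YDR050C), TDH3 (YGR192C), PGK1 (YCR012W), GPM1 (YKL152C), ENO2 (YHR174W) and CDC19 (YAL038W). The measurement was SLAM-seq: newly made RNA was labelled for 4 min with 5 mM 4-thiouracil, and a read with at least 2 T-to-C conversions was counted as a T>C read, a measure of newly synthesized RNA. Every strain carried the auxin receptor transgene pGPD1-OsTIR1:HIS3 and degron-tagged copies of both yeast BET genes, BDF1-3xV5-mAID::URA3 and BDF2-3xV5-mAID::KanMX, so the DMSO controls carried the tags as well.

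Before labelling, cells were given 1 mM 3-indoleacetic acid (IAA), which triggers degradation of tagged Bdf1 and Bdf2, or its solvent DMSO alone, for 25 min. The Bdf1/2-AID strain had no further BDF1 copy, and WT had an additional unmodified BDF1 at TRP1. In the place of that unmodified copy, 21 variants had a deletion (Δ), a mutation (m) or, in pNPS/CPS, phosphomimetic residues: ΔBD1, ΔBD2, ΔBD1/2, mBD1, mBD2 and mBD1/2 in the bromodomains, ΔNPS, ΔCPS, ΔNPS/CPS, mNPS, mCPS, mNPS/CPS and pNPS/CPS in the N- and C-terminal phosphorylation sites, ΔB, ΔBID and ΔB/BID in motif B and the basic interaction domain, ΔET, mET(1), mET(2) and mET(4) in the extra-terminal domain, with the number of acidic residues changed in brackets, and ΔIDRs in intrinsically disordered regions. WT had 6 replicates per treatment, A to F, and each of the other 22 strains had 3, described as biological replicates. The cultures were not limited to the variant protein in DMSO, since the tagged Bdf1 and Bdf2 were then still present, and each variant was expressed from an ectopic locus.

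Libraries held 4089393 to 21384793 reads on genes (median 8054872), and T>C reads made up 0.739% to 5.60%. The strain labels could be checked on BDF1, which averaged 135 CPM (reads per 1000000 of the library) in IAA and 106 in DMSO without a further copy, against 241 and 246 in WT. Some libraries stood apart in the members themselves. The 10 genes took 1.01% to 1.48% of all reads in WT replicates A to C and 3.10% to 3.45% in WT replicates D to F, so 2 sets of WT libraries differed by more than any treatment moved them. In mET(4) the range was 1.15% to 3.04%, with replicate A highest in both treatments, in mBD1/2 it was 1.24% to 1.90%, in mBD1, mBD2, ΔNPS and mET(2) 1.57% to 2.79%, and in all other strains 2.93% to 5.21%. Library numbers fell into separate runs, and both treatments of a strain were always in the same run. Within their run the numbers of WT A to C, mET(4) and mBD1/2 followed each other directly, apart from those of WT D to F. Whether a run is a batch is not given, and where 2 strains from different runs are compared below, strain and run cannot be told apart.

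Glycolysis converts glucose to pyruvate and supplies ATP and NADH, and in budding yeast grown on glucose its enzymes are among the most abundant proteins of the cell. PGI1 encodes phosphoglucose isomerase, PFK1 and PFK2 the subunits of phosphofructokinase, FBA1 aldolase and TPI1 triose phosphate isomerase, which together carry the hexose to the triose phosphates. TDH3 encodes the main glyceraldehyde-3-phosphate dehydrogenase, PGK1 phosphoglycerate kinase, GPM1 phosphoglycerate mutase, ENO2 enolase and CDC19 pyruvate kinase, which complete the route to pyruvate. Transcription of many of these genes depends on the DNA-binding proteins Rap1 and Gcr1 and the Gcr1 partner Gcr2. Bdf1 and Bdf2 are the yeast BET proteins, which bind acetylated histones and are associated with the general transcription factor TFIID.

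In the R64 assembly the annotated genes are CDC19 at chrI:71786-73288 (+), PGI1 at chrII:612236-613900 (−), PGK1 at chrIII:137746-138996 (+), TPI1 at chrIV:555726-556472 (−), TDH3 at chrVII:882812-883810 (−), PFK1 at chrVII:970771-973734 (−), ENO2 at chrVIII:451327-452640 (+), GPM1 at chrXI:163642-164385 (−), FBA1 at chrXI:326408-327487 (−) and PFK2 at chrXIII:671887-674766 (−). Each counted region ran from the gene start to 250 bases past its annotated end. The upstream DNA is shown for the 5 members that had a match to a Rap1 word, because these promoters belong to the gene group whose T>C reads are followed below. The words searched on both strands of the 700 bases before each start codon were ACCCANACA for Rap1, CTTCC for Gcr1 and TATAAA for the TATA box, none of which contains another. The Rap1 word was found upstream of 5 of the 10 genes and in 3.9% of 6005 windows of the same length, the Gcr1 word upstream of 9 and in 77.9%, and TATAAA upstream of 8 and in 69.3%. Both the Rap1 and the Gcr1 word were found upstream of 4 members (FBA1, PGK1, GPM1 and CDC19) and in 3.0% of windows. The stretches below are 101 bases long, read 5′ to 3′ on the strand of the gene, with matches to the Rap1 and Gcr1 words on either strand in capitals. They lie at chrXI:327937-328037 (FBA1), chrVII:884267-884367 (TDH3), chrIII:137228-137328 (PGK1), chrXI:164725-164825 (GPM1) and chrI:71088-71188 (CDC19).
FBA1: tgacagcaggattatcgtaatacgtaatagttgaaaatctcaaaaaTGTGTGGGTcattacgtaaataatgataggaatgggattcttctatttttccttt
TDH3: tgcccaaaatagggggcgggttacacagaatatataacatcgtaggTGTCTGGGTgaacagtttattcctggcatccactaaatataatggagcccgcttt
PGK1: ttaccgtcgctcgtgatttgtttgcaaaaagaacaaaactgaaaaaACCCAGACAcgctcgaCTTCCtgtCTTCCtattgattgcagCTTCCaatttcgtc
GPM1: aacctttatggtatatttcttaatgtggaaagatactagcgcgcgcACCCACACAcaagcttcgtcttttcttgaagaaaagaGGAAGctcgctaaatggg
CDC19: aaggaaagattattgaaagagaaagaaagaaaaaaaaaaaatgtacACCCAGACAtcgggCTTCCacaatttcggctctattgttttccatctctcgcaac
The Rap1 match began 504 bases before the start codon in FBA1, 511 in TDH3, 472 in PGK1 and 652 in CDC19. These matches describe the letters of the reference and say nothing of occupancy in these cells.

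The first comparison asked how depletion of both BET proteins moved newly synthesized RNA of the glycolytic genes in the Bdf1/2-AID strain. Per total reads, no member fell on IAA, while most genes did. The median log2 change of the 10 members on IAA was 0.09, against −1.63 over all 2751 genes tested, a gap of 1.72. Of those genes, 86.2% were lower in IAA and 0.436% were higher, by the quasi-likelihood test of edgeR at an adjusted p under 0.05, and among the members none was lower and 2 were higher. All 10 members passed the filter that set these 2751 genes, which asked for T>C reads in each library.

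The enzymes that act on hexoses and split them are given first. FBA1, aldolase, had 91.9, 90.2 and 84.7 T>C CPM (T>C reads per 1000000 total reads of the library) in IAA libraries A, B and C, against 75.4, 68.9 and 70.6 in DMSO. Every IAA library was above every DMSO library, and FBA1 rose by a log2 change of 0.31 (SE 0.12, adjusted p = 0.0171, edgeR's quasi-likelihood test, Benjamini-Hochberg adjusted). For PGI1 the values were 23.3, 20.8 and 19.6 in IAA, against 22.3, 19.2 and 21.5 in DMSO, and the groups overlapped (log2 change 0.02). PFK1 had 14.6, 17.7 and 20.3 T>C CPM in IAA, against 18.9, 16.6 and 17.8 in DMSO. PFK2, the other phosphofructokinase subunit, had 13.9, 17.4 and 18.8 in IAA, against 18.5, 16.6 and 14.3 in DMSO. Both subunit genes overlapped between treatments, with log2 changes of −0.01 for PFK1 and 0.02 for PFK2. TPI1 had 42.0, 41.3 and 43.0 in IAA, against 41.4, 41.7 and 34.2 in DMSO, and also overlapped (0.10).

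Among the enzymes of the later steps, TDH3 had the highest T>C level of the members, with 163.5, 160.1 and 153.5 T>C CPM in IAA, against 178.5, 151.3 and 139.6 in DMSO. DMSO library A was the highest and DMSO library C the lowest of the 6, and the log2 change was 0.02. PGK1 had 148.0, 139.5 and 145.1 in IAA, against 133.4, 129.7 and 114.7 in DMSO. The PGK1 groups did not overlap, but its log2 change of 0.19 (SE 0.12) did not pass the test (adjusted p = 0.124, edgeR's quasi-likelihood test, Benjamini-Hochberg adjusted). GPM1, phosphoglycerate mutase, had 61.1, 57.8 and 58.8 in IAA, against 54.1, 47.2 and 43.5 in DMSO. GPM1 did not overlap between treatments and rose by a log2 change of 0.29 (SE 0.13, adjusted p = 0.0334, edgeR's quasi-likelihood test). ENO2 had 107.7, 89.6 and 94.1 in IAA, against 102.7, 91.4 and 79.9 in DMSO (0.08), and CDC19 71.3, 71.2 and 68.1, against 70.6, 61.8 and 58.0 (0.14). Both overlapped between treatments.

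**Figure D1:**
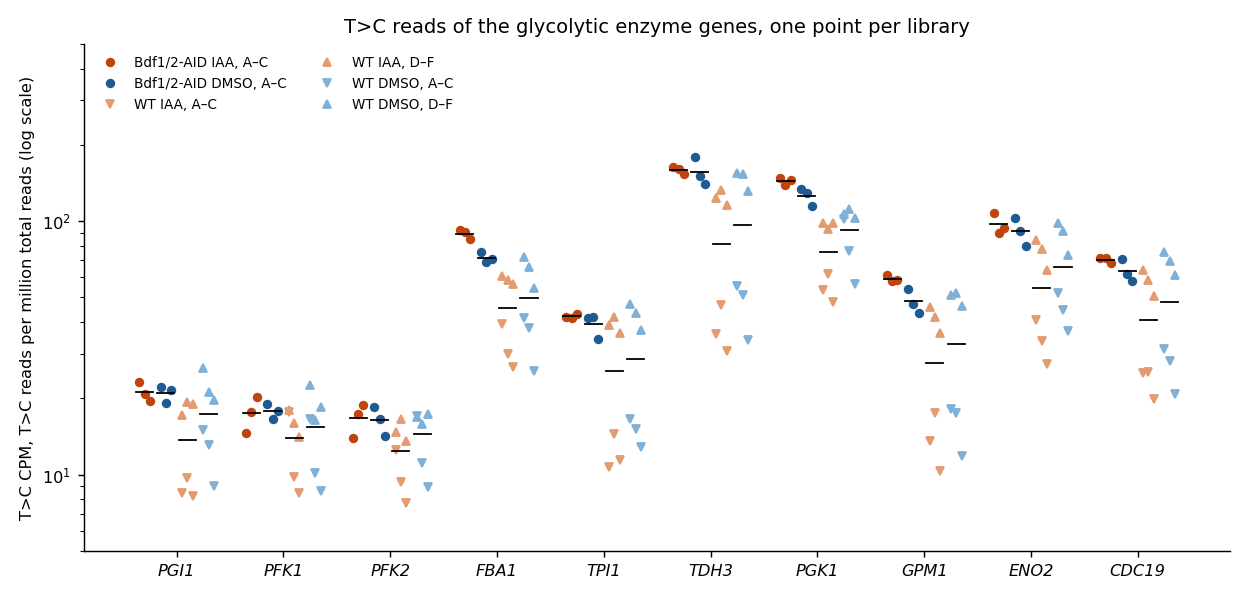
T>C CPM (log axis) of each of the 10 glycolytic genes in Bdf1/2-AID and WT, one point per library and a line at each group mean, with WT replicates A to C and D to F as different triangles. Bdf1/2-AID libraries in IAA and DMSO lie close together for every gene, as for TDH3 (153.5 to 163.5 in IAA, against 139.6 to 178.5 in DMSO), while the WT libraries split into 2 sets.

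The calls of FBA1 and GPM1 were near the threshold. Without IAA library A or B or without DMSO library B, neither gene passed the test. The log2 change of FBA1 was then 0.29 (adjusted p = 0.0579), 0.30 (adjusted p = 0.0563) and 0.28 (adjusted p = 0.0628), and that of GPM1 had an adjusted p of 0.0871, 0.0607 and 0.0866 (all edgeR). Without DMSO library C only FBA1 was called, and GPM1 had a log2 change of 0.23 (adjusted p = 0.141). Without DMSO library A, PGK1 was called as well (0.24, adjusted p = 0.0490).

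All these values are relative to total reads, and the choice of scale moves every gene together. Scaled by size factors of total reads, the all-gene median was −0.56 and all 10 members were higher (median 1.17), where 14.2% of genes were higher and 1066 were lower. Scaled by TMM factors of the T>C reads, the all-gene median was −0.11 and all 10 members were higher (median 1.61), where 24.5% of genes were higher. The gap between members and all genes hardly moved, at 1.68 to 1.94 over 12 alternatives. The values are relative to the total reads of a library, so a change in total RNA per cell was not measured. The rank of the members, counted from the most increased gene, was 24 to 91 of 2751.

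Total reads, which measure all polyadenylated RNA of a gene, were higher in IAA for every member. TDH3 had 14148, 13390 and 13329 CPM in IAA libraries A, B and C of Bdf1/2-AID, against 11685, 11117 and 10583 in DMSO. PGK1 had 9126, 8505 and 8760 in IAA, against 6707, 7370 and 6448 in DMSO. FBA1 had 6516, 6431 and 6322 in IAA, against 4916, 4956 and 4635 in DMSO. In these 3 genes every IAA library was above every DMSO library, and the same held for the other 7 members. No share of all genes without overlap was counted to set beside this. TPI1 had 2097, 2142 and 2485 in IAA, against 1777, 1673 and 1476 in DMSO. At the low end, PFK2 had 503, 540 and 490 in IAA, against 392.3, 401.1 and 394.6 in DMSO.

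All 10 members passed the test on total reads, where 5.64% of 4840 genes were higher in IAA and 77.4% lower. Their log2 changes were 0.28 (ENO2, adjusted p = 0.00523) to 0.45 (TPI1, adjusted p = 0.00017), with 0.41 for FBA1 (adjusted p = 7.90e-05), by edgeR's quasi-likelihood test. The members' median was 0.35, against −1.07 over all genes, and they ranked 122 to 243 of 4840 from the most increased gene. Without DMSO library C the count was 9, since ENO2 had 0.22 (adjusted p = 0.0542, edgeR). With size factors of total reads the all-gene median was 0.01, with 1789 genes higher and 1303 lower, and with TMM factors it was −0.13, with 1584 higher and 1771 lower. All 10 members were higher on both scales, with medians of 1.44 and 1.30.

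The share of T>C reads among the gene's own reads needs no scaling between libraries. PFK2 had the highest share of the members, with 2.77%, 3.22% and 3.84% in IAA libraries A, B and C, against 4.72%, 4.15% and 3.61% in DMSO, and the groups overlapped. TPI1 had 2.002%, 1.93% and 1.73% in IAA, against 2.33%, 2.49% and 2.32% in DMSO. TDH3 had 1.16%, 1.20% and 1.15% in IAA, against 1.53%, 1.36% and 1.32% in DMSO. In TPI1 and TDH3 all IAA libraries were below all DMSO libraries. FBA1 had 1.41%, 1.40% and 1.34% in IAA, against 1.53%, 1.39% and 1.52% in DMSO, and GPM1 1.80%, 1.62% and 1.55%, against 1.79%, 1.72% and 1.72%. These 2 genes overlapped between treatments.

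By this measure 5 members fell, where 56.8% of genes were lower in IAA: PGI1 (log2 change −0.29, adjusted p = 0.0434), PFK1 (−0.35, adjusted p = 0.0203), PFK2 (−0.35, adjusted p = 0.0241), TPI1 (−0.34, adjusted p = 0.00704) and TDH3 (−0.27, adjusted p = 0.0169, edgeR's quasi-likelihood test, Benjamini-Hochberg adjusted). The other 5 were not called and had log2 changes of −0.19 (ENO2), −0.17 (PGK1), −0.15 (CDC19), −0.10 (FBA1) and −0.08 (GPM1). The members' median was −0.23, against −0.72 over all genes. The count was 2 to 4 with any 1 library left out, the lowest without IAA library B or DMSO library A, and 2 with DESeq2, where 37.5% of genes were lower. The shares of the members were low on the whole: group means of the 10 genes spanned 1.13% to 3.28% in IAA, against 1.25% to 4.16% in DMSO, and the median gene had 5.46% in IAA, against 8.85% in DMSO. All 10 lay below the median gene in both treatments of Bdf1/2-AID and of WT.

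**Figure D2:**
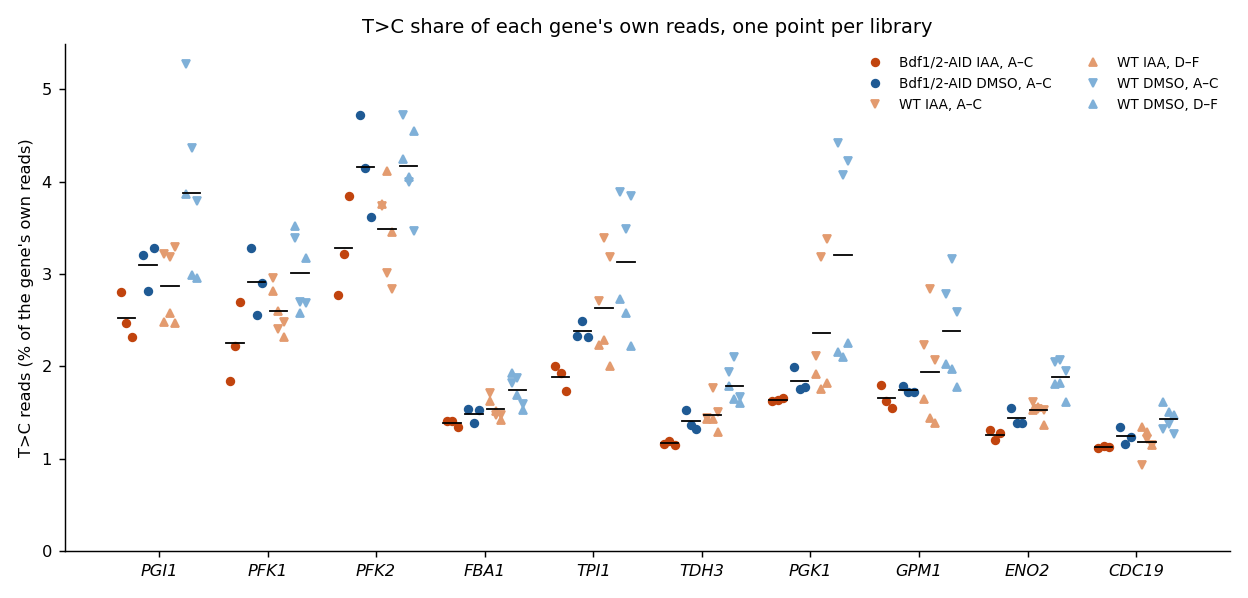
T>C reads as a percent of each gene's own reads (linear axis from 0) for the 10 glycolytic genes in Bdf1/2-AID and WT, one point per library and a line at each group mean. In Bdf1/2-AID the IAA points of TPI1 (1.73% to 2.002%) lie below the DMSO points (2.32% to 2.49%), while those of FBA1 and GPM1 overlap.

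WT asked the same of cells that kept an unmodified Bdf1. TDH3 had 35.9, 46.9 and 30.9 T>C CPM in IAA replicates A to C and 123.5, 132.8 and 116.0 in D to F, against 55.7, 51.1 and 34.0 in DMSO replicates A to C and 155.0, 153.1 and 131.7 in D to F. FBA1 had 39.3, 29.9 and 26.5 in IAA A to C and 60.6, 58.7 and 56.3 in D to F, against 41.6, 37.7 and 25.7 in DMSO A to C and 72.4, 66.2 and 54.5 in D to F. In both genes replicates D to F were above A to C in each treatment, and within either set the treatments overlapped. PFK2 differed less between the sets, with 12.5, 9.35 and 7.75 in IAA A to C and 14.7, 16.6 and 13.5 in D to F, against 17.02, 11.1 and 8.93 in DMSO A to C and 16.9, 15.8 and 17.3 in D to F.

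No member was called in WT, where 0.0% of 2751 genes were lower in IAA, with 0 members and 450 lower genes at an unadjusted p under 0.05 (edgeR). The members' log2 changes were −0.35 (PGI1) to −0.14 (FBA1), with a median of −0.24 against −0.36 over all genes, and with TMM factors, which put the all-gene median at 0.01, the members' median was 0.12. Replicates with the same letter deviated together in WT, but not every sample correlated best with its own letter. This correlation does not tell the letter apart from the split into A to C and D to F. With the letter as a block 6 members were lower, where 39.5% of genes were lower. With only the 2 sets, A to C and D to F, as a block, 1 member was lower, where 23.0% of genes were. Total reads of the members had log2 changes of 0.01 to 0.09 in WT with no member called (adjusted p = 1.00 each, edgeR) and 0.0207% of genes higher. In the share of own reads, 0 members passed the test in WT, where 0.0% of genes were lower and 4 members had an unadjusted p under 0.05 (edgeR). The members' log2 changes by this measure were −0.18 to −0.44 with a median of −0.28, against −0.29 over all genes. With the letter as a block 9 members were lower, where 32.4% of genes were lower. In Bdf1/2-AID the members' median by this measure was −0.23, against −0.72 over all genes, and the difference between the 2 strains was not tested.

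The change on IAA in Bdf1/2-AID was tested against that in WT in 1 fit. The difference in log2 change was 0.12 (PFK1) to 0.55 (GPM1) for the members, with a median of 0.37 against −1.24 over all genes. No member passed the test or had an unadjusted p under 0.05 (edgeR), where 51.1% of genes had a lower and 0.182% a higher change in Bdf1/2-AID. With the letter as a block 6 members had a higher change, where 1.16% of genes did. With WT replicates A to C alone the count was 1 (0.8% of genes), with D to F alone 2 (0.509%), with size factors of total reads 5 (1.2%) and with TMM factors 8 (6.76%).

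Within each of the 21 variant strains, the members moved little on IAA. Of 210 gene and strain pairs, 1 was called lower and 0 higher, where 16.6% of all genes and strains were lower and 0.0623% higher, and before adjustment 10 were lower and 0 higher at p under 0.05 (edgeR). The log2 changes were −0.49 to 0.34, of which 140 were negative and 70 positive, and on the other scales 13 pairs (size factors, where 0.318% of all genes and strains were higher) and 46 pairs (TMM factors, 1.79%) were higher. The called pair was PGI1 in mNPS, which had 14.8, 14.1 and 14.5 T>C CPM in IAA, against 23.8, 19.9 and 16.9 in DMSO. These groups did not overlap (log2 change −0.49, SE 0.18, adjusted p = 0.0458, edgeR), where 11.9% of genes were lower in that strain. It was not called with DESeq2, with either other scale or without replicate B or C of the variant, and 4 pairs were called without replicate A. With the letter as a block 5 pairs were lower, where 21.5% of all genes and strains were: PGI1, FBA1 and PGK1 in mNPS, PGK1 in ΔNPS and TDH3 in ΔNPS/CPS. None was in mCPS, the only variant where every same-lettered pair of samples had a correlation above 0.1. In mNPS (0.057 to 0.086), ΔNPS (0.044 to 0.109) and ΔNPS/CPS (0.013 to 0.065) each sample still correlated best with its own letter.

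The members lay above the all-gene median in 21 of 21 variants, by 0.08 to 1.14 on the log2 scale. In ΔET, 72.6% of genes were lower in IAA with a median of −1.18, against −0.04 for the members. TDH3 had 110.6, 121.7 and 151.0 T>C CPM in ΔET in IAA, against 123.0, 104.6 and 160.2 in DMSO. PGK1 had 78.8, 95.9 and 103.3 in IAA, against 101.5, 59.6 and 93.2 in DMSO. Both genes overlapped between treatments, with DMSO replicate B lowest of the 6 in each. In mET(4), 50.3% of genes were lower (median −0.93, members −0.03), and in ΔBD1/2, 46.6% were (median −0.68, members −0.06). TDH3 had 178.0, 183.2 and 185.0 in ΔBD1/2 in IAA, against 194.7, 186.7 and 190.2 in DMSO. These groups did not overlap, but the gene was not called.

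**Figure D3:**
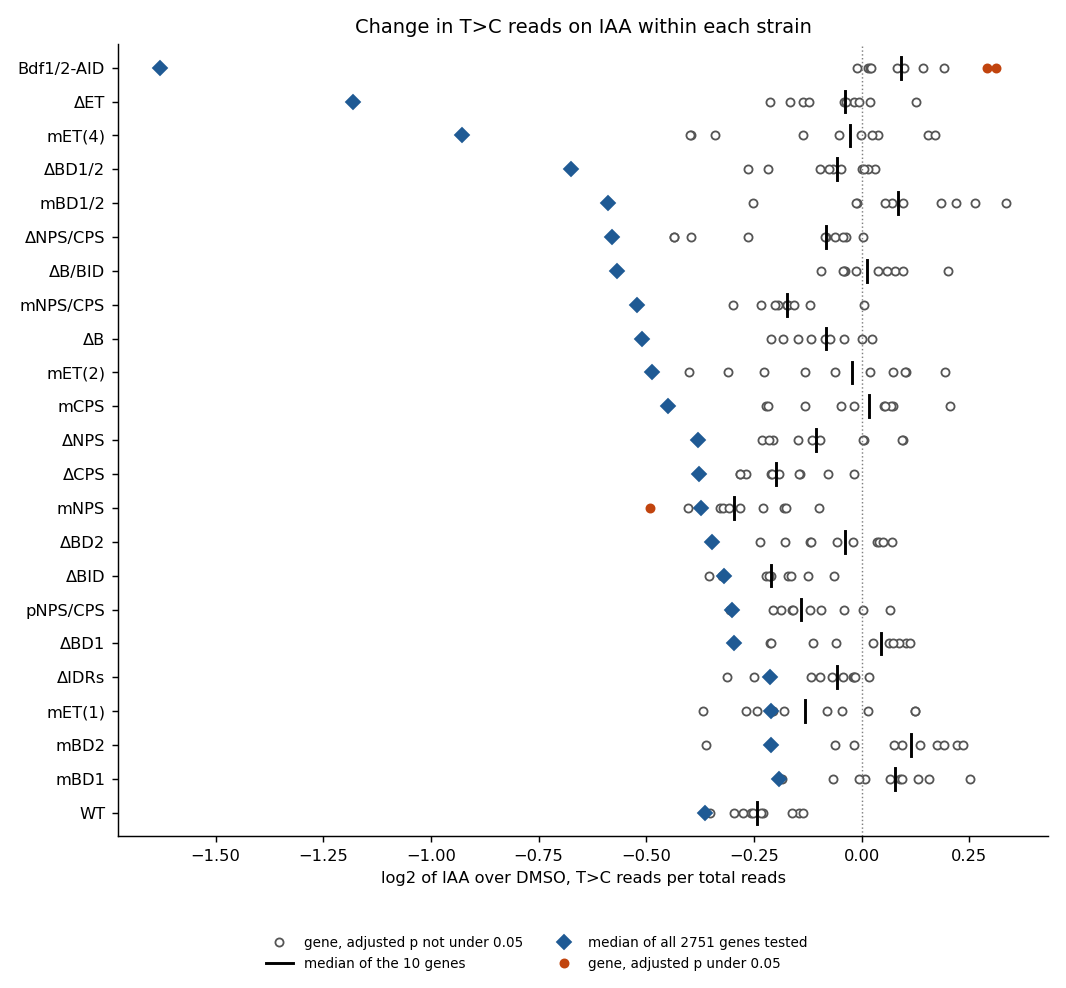
Log2 change of T>C reads per total reads, IAA over DMSO, within each of the 23 strains: circles are the 10 glycolytic genes (filled where the adjusted p was under 0.05), black bars their median and diamonds the median of all 2751 genes tested. Members stay between −0.49 and 0.34 in every strain, while the all-gene median runs down to −1.18 in ΔET and −1.63 in Bdf1/2-AID.

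As a share of all T>C reads the members had a higher mean in IAA in 23 of 23 strains, by 1.05 to 2.21 times (median 1.21). In Bdf1/2-AID the 10 genes took 4.70% ± 0.16 of T>C reads in IAA and 2.13% ± 0.10 in DMSO (SD, n = 3 each). In ΔET they took 3.46% ± 0.03 in IAA and 2.04% ± 0.20 in DMSO (SD, n = 3 each), and in WT 1.28% ± 0.55 in IAA and 1.20% ± 0.49 in DMSO (SD, n = 6 each). Every IAA library was above every DMSO library in 17 strains, among them Bdf1/2-AID and ΔET but not WT. Of total reads the members took a higher share in IAA in 22 of 23 strains, but without overlap in only 6, and by at most 1.26 times.

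Variants were then set against WT in IAA, where the tagged proteins had been depleted in both strains. ΔET lay in another run of library numbers than WT, so strain and run cannot be told apart. TDH3 had 110.6, 121.7 and 151.0 T>C CPM in ΔET, against 35.9, 46.9 and 30.9 in WT A to C and 123.5, 132.8 and 116.0 in D to F. FBA1 had 44.0, 50.4 and 60.9 in ΔET, against 39.3, 29.9 and 26.5 in WT A to C and 60.6, 58.7 and 56.3 in D to F. In both genes the ΔET values lay above WT replicates A to C and overlapped D to F. No member was called and 0 had an unadjusted p under 0.05 (edgeR), where 76.7% of genes were lower in ΔET and 1.2% higher. Their log2 changes were −0.15 (PGI1) to 0.66 (TDH3), with a median of 0.19 against −1.65 over all genes. With size factors of total reads (all-gene median −0.73) and with TMM factors (−0.07) all 10 members were higher, with medians of 1.20 and 1.83, where 8.18% and 21.3% of genes were higher. With WT replicates A to C alone 7 members were higher (median 0.82, where 6.03% of genes were higher), and with D to F alone 2 were lower (median −0.24, where 88.5% were lower), among them TPI1 (−0.54, adjusted p = 0.00638, edgeR). The gap to the all-gene median was 1.84 and ran from 1.49 to 2.27 over 17 alternatives.

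mET(4) lay in the same run of numbers as WT, directly after WT replicates A to C. Its members took 1.15% to 3.04% of all reads, against 1.01% to 1.48% in WT A to C and 3.10% to 3.45% in D to F. The part of this in the comparison was not tested. FBA1 had 59.1, 57.9 and 42.5 T>C CPM in mET(4), and TDH3 50.2, 58.4 and 44.4, so FBA1 lay above WT A to C in IAA, while TDH3 overlapped A to C and lay below D to F. No member was called and 0 had an unadjusted p under 0.05 (edgeR), where 70.3% of genes were lower in mET(4) and 1.05% higher. Log2 changes were −0.69 (TPI1) to 0.23 (FBA1), with a median of −0.23 against −1.20 over all genes, and the members' median was 0.70 with size factors and 0.97 with TMM factors, where 2 and 5 members and 2.73% and 6.91% of genes were higher. With WT D to F alone 7 members were lower (80.1% of genes), and with A to C alone 6 were higher (2.33%).

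Of the variants with both bromodomains changed, ΔBD1/2 had 2 members higher than WT, where 5.42% of genes were higher and 23.5% lower. TDH3 had 178.0, 183.2 and 185.0 T>C CPM in ΔBD1/2, all above the 6 WT libraries (log2 change 1.17, SE 0.42, adjusted p = 0.0447, edgeR). ENO2 had 120.6, 107.5 and 91.3 in ΔBD1/2, against 40.9, 33.8 and 27.3 in WT A to C and 84.1, 77.8 and 64.1 in D to F. ENO2 did not overlap either (0.96, SE 0.35, adjusted p = 0.0460, edgeR). Neither was called without any of the 3 ΔBD1/2 libraries or without WT replicate A, B or C, and 3 members were called without WT replicate D. With D to F alone 2 members were higher (5.67% of genes), and with A to C alone 8 (14.9%). ΔBD1/2 and WT were in different runs of library numbers. In mBD1/2, in the run of WT, no member was called and none had an unadjusted p under 0.05 (edgeR), where 0.327% of genes were lower and as many higher. The members' median there was −0.06, against −0.41 over all genes (0.55 with size factors and 0.34 with TMM factors), and with WT D to F alone 5 were lower (35.5% of genes), with A to C alone 3 higher (2.76%).

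In the other 17 variants, 19 gene and strain pairs were lower than WT in IAA and 12 higher. The lower pairs were, but for 1, in 3 variants: 5 members in ΔCPS (where 85.6% of genes were lower), 6 in ΔNPS/CPS (88.5%) and 7 in mNPS/CPS (90.4%). PGI1, PFK1, PFK2 and FBA1 were called lower in each of these 3 variants, PGI1 by −0.98 in ΔCPS, −1.57 in ΔNPS/CPS and −1.30 in mNPS/CPS. All 10 members had negative log2 changes in each. The 2 WT sets differed less for PFK2 than for TDH3 (above), and against Bdf1/2-AID in DMSO all 10 members were called in each (below). The members' medians were −0.75, −0.87 and −0.89, against −1.58, −1.85 and −1.80 over all genes. In mCPS, where the C-terminal sites were mutated, 0 members were called by edgeR, none had an unadjusted p under 0.05 and their median was 0.26, against −0.71 over all genes, of which 26.9% were lower. The other lower pair was PFK2 in mBD1 (−0.83, adjusted p = 0.0444, edgeR), where 1.45% of genes were lower. The higher pairs were PGI1, FBA1, TPI1 and GPM1 in each of mBD1 (where 24.9% of genes were higher), mBD2 (19.9%) and mET(2) (8.62%). TPI1 was higher by 1.62, 1.65 and 1.63 in these variants, which lay in another run than WT. In the remaining 11 variants 0 members were called by edgeR, with 0 to 9 higher and 0 lower at an unadjusted p under 0.05 in each. The 9 higher were in mET(1), where 614 of 2751 genes were higher by that measure. Over these variants 13 (pNPS/CPS) to 614 genes were higher and 92 (mET(1)) to 1156 (mCPS) lower.

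ΔET and Bdf1/2-AID were in the same run and were compared directly in IAA, which asked whether a Bdf1 without the ET domain left the members at another level than no further Bdf1. FBA1 had 44.0, 50.4 and 60.9 T>C CPM in ΔET, against 91.9, 90.2 and 84.7 in Bdf1/2-AID. PGI1 had 10.3, 14.5 and 11.8 in ΔET, against 23.3, 20.8 and 19.6 in Bdf1/2-AID. In both genes all ΔET libraries lay below all Bdf1/2-AID libraries. FBA1 fell by 0.78 (SE 0.18, adjusted p = 0.00203) and PGI1 by 0.79 (SE 0.20, adjusted p = 0.00735, both edgeR's quasi-likelihood test) on the log2 scale. TPI1 (−0.64), PGK1 (−0.64), GPM1 (−0.67) and ENO2 (−0.65) were lower as well, so 6 members were called, where 2.33% of genes were lower. CDC19 (−0.50), PFK1 (−0.44), PFK2 (−0.44) and TDH3 (−0.31, adjusted p = 0.471, edgeR) were not called. The members' median was −0.64, against −0.05 over all genes. The count was 1 without ΔET replicate B or Bdf1/2-AID replicate A, 0 without Bdf1/2-AID replicate B, 2 without Bdf1/2-AID replicate C and 3 without ΔET replicate A. It was 0 in a fit over all libraries, which share 1 estimate of spread. In DMSO, no member was called between the same strains by edgeR, with 4 at an unadjusted p under 0.05 (median −0.38, against −0.44 over all genes, of which 12.8% were lower in ΔET). All 10 members had negative log2 changes in DMSO as well, from −0.64 to −0.24. Whether the members differed more between these strains in IAA than in DMSO was not tested.

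The next comparison took strains in DMSO, where tagged Bdf1 and Bdf2 were present, against Bdf1/2-AID in DMSO. These comparisons share the Bdf1/2-AID DMSO libraries with each other and with the depletion comparison above. WT had no member called, where 0.182% of genes were lower and 4.43% higher, and 0 members had an unadjusted p under 0.05 (edgeR). The log2 changes were −0.69 (TDH3) to −0.19 (PFK2), with a median of −0.45 against 0.34 over all genes. With WT A to C alone 9 members were lower (median −1.04), where 12.0% of genes were lower, and with D to F alone 0 were (median 0.02).

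All 10 members fell in each of ΔCPS, mNPS/CPS and ΔNPS/CPS, and so did most genes. In ΔCPS, TDH3 had 75.1, 71.4 and 72.2 T>C CPM, against 178.5, 151.3 and 139.6 in Bdf1/2-AID in DMSO. PGK1 had 47.4, 41.2 and 47.1 in ΔCPS, against 133.4, 129.7 and 114.7 in Bdf1/2-AID. FBA1 had 30.6, 29.6 and 27.5 in ΔCPS, against 75.4, 68.9 and 70.6 in Bdf1/2-AID. No library of these genes overlapped, and the ΔCPS replicates were close together. Log2 changes ran from −1.06 (PFK1) to −1.48 (PGK1, adjusted p = 1.05e-29, edgeR), with a median of −1.21, equal to the −1.21 over all genes, of which 89.0% were lower.

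mNPS/CPS was less even. TDH3 had 47.7, 88.8 and 54.5 T>C CPM in its DMSO replicates A, B and C, and FBA1 had 21.8, 44.3 and 19.7. PFK1 had 1.71, 9.21 and 3.38, against 18.9, 16.6 and 17.8 in Bdf1/2-AID. Replicate B was the highest in each, and all 3 replicates were below Bdf1/2-AID. Log2 changes were −1.89 (PFK1) to −1.30 (TDH3), with SE of 0.38 to 0.42, and the median was −1.44 against −1.30 over all genes, of which 80.6% were lower. In ΔNPS/CPS, which was in another run than Bdf1/2-AID, TDH3 had 58.2, 79.5 and 70.9 and TPI1 8.26, 11.8 and 12.6, against 41.4, 41.7 and 34.2 for TPI1 in Bdf1/2-AID. The log2 changes were −1.85 (TPI1) to −1.17 (TDH3) and the median was −1.35, against −1.27 over all genes, of which 87.0% were lower. The 30 calls remained with any 1 library left out, and with TMM factors of the T>C reads, which take the shift of most genes as the zero line, 1 was left, where 2.62% of all genes and strains were lower. Total reads of the members moved less and in fewer genes. In ΔCPS their means were 0.684 to 1.07 times those of Bdf1/2-AID in DMSO, and PGI1, PFK1, FBA1, PGK1 and ENO2 had all libraries below. PGK1 had 5013, 4143 and 4886 CPM in ΔCPS, against 6707, 7370 and 6448 in Bdf1/2-AID. TDH3 had 11398, 10709 and 10265 in ΔCPS, against 11685, 11117 and 10583 in Bdf1/2-AID, and overlapped. In mNPS/CPS the means were 0.833 to 1.07 times those of Bdf1/2-AID with 1 gene below without overlap, CDC19, and in ΔNPS/CPS 0.769 to 1.02 times with 3, PGI1, PFK2 and TPI1. These differences in total reads were not tested, and no share of all genes without overlap was counted to set beside them.

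**Figure D4:**
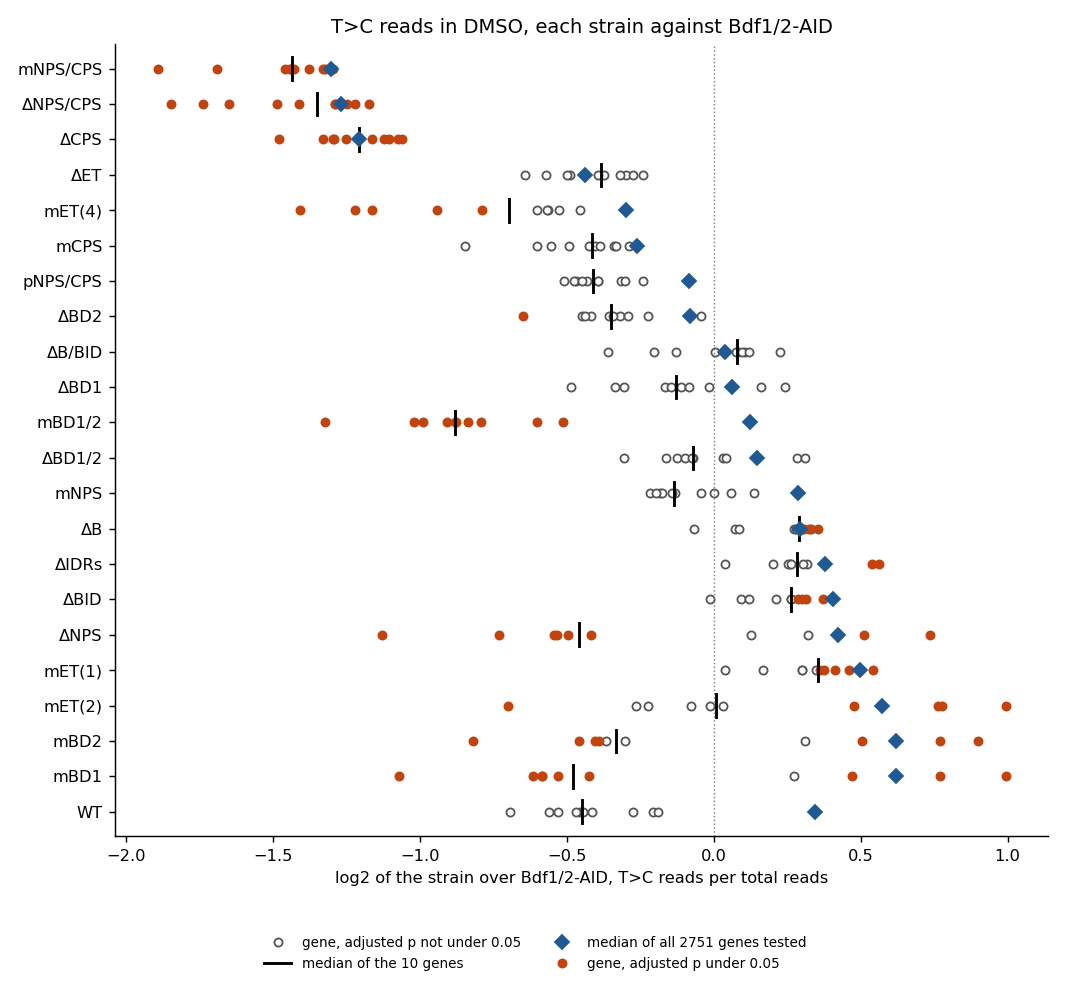
Log2 of T>C reads per total reads in DMSO, each strain over Bdf1/2-AID: circles are the 10 glycolytic genes (filled where the adjusted p was under 0.05), black bars their median and diamonds the median of all 2751 genes tested. In ΔCPS, mNPS/CPS and ΔNPS/CPS the members and the all-gene median lie together (−1.21 and −1.21 in ΔCPS), and in mBD1, mBD2, ΔNPS and mET(2) the members spread to both sides of 0.

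In the other 18 variants 33 gene and strain pairs were lower than Bdf1/2-AID in DMSO and 26 higher. mBD1/2 had all 10 members lower, from −0.51 (PFK1) to −1.32 (TDH3), where 8.94% of genes were lower. TDH3 had 47.3, 68.9 and 71.5 T>C CPM there, against 178.5, 151.3 and 139.6 in Bdf1/2-AID. The members' median was −0.88, against 0.12 over all genes, and the members also took a low share of total reads in mBD1/2 (1.24% to 1.90%, above), as did WT A to C. TDH3 had 2458, 3850 and 3513 CPM of total reads in mBD1/2, against 11685, 11117 and 10583 in Bdf1/2-AID. Total reads of every other member were also below Bdf1/2-AID in every library. In T>C share of own reads, PFK1 and PFK2 overlapped, and every other member lay above Bdf1/2-AID in every library. The part of the low total reads in the mBD1/2 result was not tested. mET(4) had 5 lower members, TPI1, TDH3, PGK1, GPM1 and ENO2, by −0.79 to −1.41, where 17.6% of genes were lower. Total reads of these 5 genes were also below Bdf1/2-AID in every DMSO library, as were those of PFK1 and PFK2, which were not called. TDH3 had 6686, 2985 and 2525 CPM in mET(4), against 11685, 11117 and 10583 in Bdf1/2-AID. In T>C share of own reads, TPI1 and PGK1 lay above Bdf1/2-AID in every library, and TDH3, GPM1 and ENO2 overlapped. The part of the low total reads in the mET(4) result was not tested. For mBD1/2 and mET(4), no share of all genes without overlap was counted. ΔBD2 had 1 lower member, FBA1 (−0.65), where 5.16% of genes were lower.

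Members moved in both directions in 4 strains of 1 run. In mBD1, 6 were lower (where 4.73% of genes were), among them PFK2 (−1.07) and TDH3 (−0.62), and 3 were higher (where 53.9% were), PGI1 (0.77), TPI1 (0.99) and GPM1 (0.47). In ΔNPS, 6 were lower (4.36% of genes) and PGI1 (0.51) and TPI1 (0.73) were higher (37.2%). In mBD2, 4 were lower (2.54% of genes) and PGI1, TPI1 and GPM1 were higher (50.3%), and in mET(2) PFK2 was lower (−0.70, 1.85% of genes) and PGI1, FBA1, TPI1 and GPM1 were higher (48.3%). PFK2 was the only member lower, and TPI1 and PGI1 were the 2 higher, in all 4 strains. Where members were only higher, the counts were 3 in ΔB (21.2% of genes), 4 in ΔBID (39.8%), 2 in ΔIDRs (16.6%) and 5 in mET(1) (41.4%). In the other 7 variants 0 members were called by edgeR, with 0 to 9 lower and 0 to 2 higher at an unadjusted p under 0.05 in each.

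The same 4 strains differed from all others in the ratios of total reads between members, which need no scaling. These pairs were picked after the values were seen and are given as a description. TDH3 over TPI1 was 1.54 to 3.62 in the 24 libraries of mBD1, mBD2, ΔNPS and mET(2), against 4.25 to 9.70 in the other 120. PFK2 over PFK1 was 0.356 to 0.459 in those 24 libraries, against 0.540 to 0.804 in the others, and ENO2 over GPM1 was 0.694 to 1.27, against 1.34 to 4.17. None of the 3 ratios of total reads overlapped. The same ratios of T>C reads did overlap, at 1.20 to 2.81 in those 24 libraries, against 2.51 to 7.04 in the others, for TDH3 over TPI1, 0.405 to 1.18, against 0.536 to 3.47, for PFK2 over PFK1, and 0.842 to 1.37, against 1.21 to 3.13, for ENO2 over GPM1. Within their run the library numbers of these 4 strains followed each other directly, so strain and place in the run cannot be told apart. mET(1), whose numbers came directly after them in the same run, had TDH3 over TPI1 ratios of 5.44 to 7.11, within the range of the other strains. The low ratios were found in IAA and in DMSO libraries alike.

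**Figure D5:**
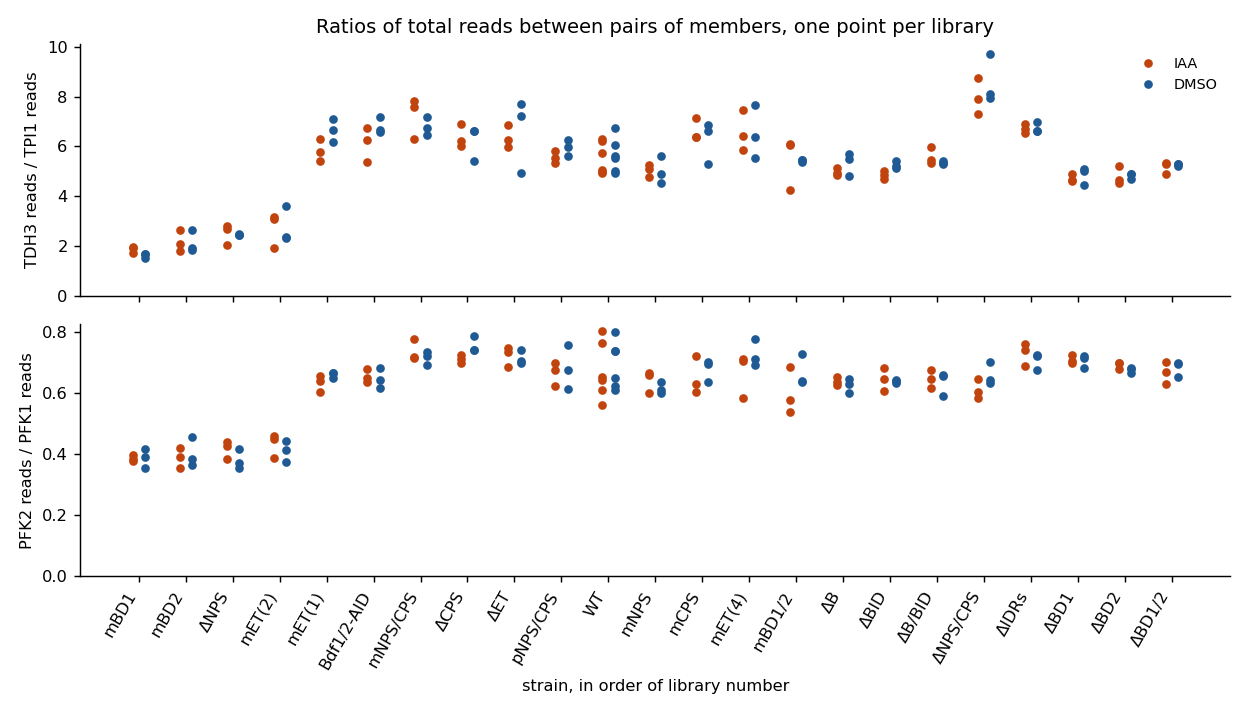
Ratio of total reads of TDH3 to TPI1 (upper panel) and of PFK2 to PFK1 (lower panel) in each library, by strain in order of library number, with IAA and DMSO as colours and both axes from 0. The 24 libraries of mBD1, mBD2, ΔNPS and mET(2) lie below all others in both panels (1.54 to 3.62 and 0.356 to 0.459).

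The level of the members was compared per length of the counted region, although reads of 3′ libraries gather at the gene end and a longer gene need not give more of them. In Bdf1/2-AID the order in DMSO was TDH3 (8910 CPM per kb), PGK1 (4558), ENO2 (4049), FBA1 (3636), CDC19 (2904), GPM1 (2778), TPI1 (1647), PGI1 (354), PFK1 (191) and PFK2 (127). Library ranges overlapped between ENO2 and FBA1 and between CDC19 and GPM1, and not between other neighbours. In IAA the levels were 10907 for TDH3, 5861 for PGK1, 4922 for ENO2, 4829 for FBA1, 3608 for GPM1, 3560 for CDC19, 2248 for TPI1, 439 for PGI1, 243 for PFK1 and 163 for PFK2, so GPM1 and CDC19 changed places within their spread. T>C CPM per 1000 T of the counted region were highest for TDH3 (403.6 in IAA, against 397.1 in DMSO) and lowest for PFK2 (17.2 in IAA, against 16.96 in DMSO).

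Over the 46 groups of strain and treatment, the T>C level of TDH3 was lowest in mET(4) in IAA (51.0 ± 7.04 T>C CPM, SD, n = 3) and highest in ΔIDRs in DMSO (227.6 ± 32.9). PGK1 ran from 40.5 ± 13.5 in mNPS/CPS in IAA to 163.3 ± 32.1 in mET(1) in DMSO, and FBA1 from 25.4 ± 6.05 in mNPS/CPS in IAA to 114.2 ± 28.6 in mET(2) in IAA (SD, n = 3 each). TPI1 was lowest in ΔNPS/CPS in DMSO (10.9 ± 2.32) and highest in mBD2 in IAA (80.5 ± 6.80). The lowest group was one of mNPS/CPS and ΔNPS/CPS for 9 of the 10 members, TDH3 being the exception. The genes whose mean log2 profile over the 46 groups was most like that of the members' mean were GDS1 (Pearson r 0.962), RPL3 (0.960), GAS1 (0.947), GCN4 (0.941) and RPL4A (0.938). RPL3 and RPL4A encode ribosomal proteins and GCN4 an activator of amino acid synthesis genes. Single members had r of 0.714 (PFK2) to 0.963 (ENO2) with the same mean, and among the 45 pairs of members r ran from 0.338 (TPI1 and PFK2) to 0.972 (GPM1 and TPI1). Groups share strains, scale and sets of libraries, so these values only describe likeness.

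Other genes of the pathway were taken from lists of hexokinases, isoenzymes, fermentation enzymes, regulators and gluconeogenic enzymes. Among isoenzymes, T>C reads of TDH2 (log2 change 0.91, adjusted p = 1.66e-08) and ENO1 (0.96, adjusted p = 3.68e-06), the 2 of 6 that could be tested, were higher in IAA in Bdf1/2-AID (edgeR). TDH2 is nearly identical to TDH3 and ENO1 to ENO2, so reads may be split between the copies. The values of these isoenzymes, and those of TDH3 and ENO2, are uncertain to that extent. Reads counted as multimapping were 0.077% for TDH3 and 0.153% for ENO2, against 0.264% for PFK1, and splitting was not tested. Among fermentation enzymes, 0 of 2 were called, PDC1 with 0.10 and ADH1 with 0.23, and among hexokinases 0 of 2, HXK2 with −0.10 and GLK1 with 0.59 (adjusted p = 0.0627, edgeR). Of the regulators, RAP1 (−3.06, adjusted p = 2.26e-10) and GCR2 (−1.21, adjusted p = 1.91e-05) fell, and GCR1 (0.02), TYE7 (−0.20) and PFK27 (−0.43) were not called (edgeR).

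In total reads of Bdf1/2-AID, 3 of 3 hexokinases were higher in IAA (HXK1 0.34, HXK2 0.34, GLK1 0.47), as were PDC1 (0.36) and ADH1 (0.37). GCR1 (0.75) and TYE7 (0.71) rose, while RAP1 (−1.61) and GCR2 (−0.89) fell (edgeR). Of the isoenzymes TDH1, TDH2 and ENO1 rose, and PYK2 (−1.53) and GPM3 (−2.63) fell, as did the gluconeogenic FBP1 (−0.55, adjusted p = 0.0480, edgeR). Against WT in IAA, ΔET had higher T>C reads of GLK1 (2.14), ENO1 (1.998) and TDH2 (1.19) and lower T>C reads of GCR1 (−1.38), GCR2 (−2.33), RAP1 (−1.88) and TYE7 (−0.89). All tested genes of these lists were lower in DMSO in ΔCPS, mNPS/CPS and ΔNPS/CPS than in Bdf1/2-AID: 2 of 2 hexokinases, 2 of 2 isoenzymes, 2 of 2 fermentation enzymes and 5 of 5 regulators in each.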

How the data were processed

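Libraries of 23 strains in DMSO and IAA were deposited as 1 table per library. Per the study's methods, the authors cleaned reads with fastp (version 0.23.2) and bbduk, aligned them to the R64 assembly with SLAM-DUNK (version 0.4.3) and counted, for each gene, reads and T>C reads. The deposited counts were used as raw counts, and of 6465 gene names 6462 matched the annotation. Differences between replicates measure culture and library spread together.

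edgeR (version 4.0.16, R 4.3.3) was run with its quasi-likelihood test on the groups compared alone, with Benjamini-Hochberg adjustment over all genes tested and a threshold of 0.05. T>C reads were scaled by the total reads of the library, for the 2751 genes that had 1 or more T>C reads in each library. Total reads were fitted for 4840 genes with at least 10 reads in every library. The T>C share of own reads was fitted with the log of the gene's own reads as offset. DESeq2 (version 1.42.0), size factors, TMM factors, no filter, a fit over all libraries, the replicate letter as a block and leaving out single libraries were the alternatives. 2 more, conversions over covered T and the WT sets as a block, were added after seeing the data. The models were tested on simulated data with known changes. Replicate pairs were checked for duplicates, and none of 162 pairs agreed within sampling noise.

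Letters come from the sample labels. Same-lettered DMSO and IAA samples deviated together (correlation above 0.1 in every pair) in WT (0.37 to 0.67) and mCPS (0.104 to 0.168) and in none of the other 21 strains, and in none of the comparisons between strains. Some strains below this limit, such as mNPS and mET(2) (0.095 to 0.326), still had each sample correlate best with its own letter. In WT not every sample did, and letter was not told apart there from the sets A to C and D to F. For variants against WT the block leaves WT replicates D to F without a partner.

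The genes named are the 10 members, the listed pathway genes (up to 4 values per list), BDF1, BDF2 and TRP1 as a check of strains, and the 5 genes outside the lists with the most similar profile. Members and lists were chosen with earlier results of these data known.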

Additional observations from a re-analysis of the deposited data

Results flagged for a closer look

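In 1 of 60 sets of WT replicates looked at, a single library stood apart from the other 5. The T>C share of ENO2's own reads was 1.37% in WT replicate F in IAA, against 1.52% to 1.61% in the other 5 IAA replicates, a gap of 0.634 of the whole range. Chance marks about 1 in 20 such sets.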

How the results depend on the processing

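The counts of members called depend on the scale and on which WT replicates are used. The counts in this section stand without the share of all genes called, so they only show how the members' own counts moved. The members' median less the all-gene median kept its sign over the alternatives except in mBD1/2 against WT (0.348, from −0.019 to 0.847) and in WT by own share (0.018, from −0.024 to 0.063), and ran from 0.019 to 0.23 in WT on IAA, 0.611 to 1.47 in mET(4) and 0.748 to 1.54 in ΔBD1/2 against WT, and −1.22 to −0.39 in WT against Bdf1/2-AID. With size factors of total reads instead of the library total, the higher members were 10 in Bdf1/2-AID on IAA (2 with the library total), 5 in the difference from WT (0), 10 in ΔET (0), 2 in mET(4) (0) and 7 in ΔBD1/2 (2) against WT, 25 pairs in the other 17 variants (12), 8 pairs in the other 18 variants in DMSO (26) and 13 pairs within the 21 variants (0). The lower ones were 2 in ΔET against Bdf1/2-AID (6), 64 pairs in the other 18 variants (33) and 0 within the 21 variants (1). With TMM factors of T>C reads the higher ones were, in the same order, 10, 8, 10, 5 and 7, then 24, 2 and 46 pairs, and the lower ones 2 pairs in the other 17 variants (19), 1 pair in ΔCPS, mNPS/CPS and ΔNPS/CPS (30), 55 pairs in the other 18 variants and 0 within the 21. In 1 fit over all libraries 0 members were higher in Bdf1/2-AID, 1 in ΔET, 5 in ΔBD1/2, 70 pairs in the other 17 variants and 8 in the other 18, and lower were 2 in mET(4), 30 pairs in the other 17 variants, 19 in the other 18, 0 in ΔET against Bdf1/2-AID, 1 in WT against Bdf1/2-AID in DMSO and 0 within the 21 variants. DESeq2 gave 19 higher pairs in the other 17 variants, 0 lower within the 21, and by own share 2 lower in Bdf1/2-AID (5) and 1 in WT (0), and without a filter the pair within the 21 variants was lost (0). With WT A to C alone, higher were 1 in the difference from WT, 7 in ΔET, 6 in mET(4), 8 in ΔBD1/2, 3 in mBD1/2 and 118 pairs in the other 17 variants, and lower were 7 of those pairs, 9 members in WT against Bdf1/2-AID and 1 in WT by own share. With D to F alone, higher were 2 in the difference and 36 pairs in the other 17 variants, and lower were 2 in ΔET, 7 in mET(4), 5 in mBD1/2 and 39 pairs.

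The replicate block, paired by letter, gave 6 lower members in WT (0 without it), 6 higher in the difference from WT and 9 lower by own share in WT. In the other strains, except mCPS, not every same-lettered pair of samples had a correlation above 0.1. In some of them each sample still correlated best with its own letter. The block gave 5 lower pairs within the 21 variants, 0 of them in mCPS and all in mNPS, ΔNPS and ΔNPS/CPS, where samples did correlate best with their own letter. Against WT the block gave 7 higher in ΔET, 6 in mET(4), 8 in ΔBD1/2, 4 in mBD1/2 and 119 pairs in the other 17 variants with 7 lower, and against Bdf1/2-AID 1 lower in ΔET and 9 in WT. With the 2 WT sets as a block, chosen after seeing the data, 1 member was lower in WT, 3 higher in the difference and 6 lower by own share. No other call of these counts moved with the block by more than 1.5 times.

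With 1 library left out, counts ran from 0 to 3 higher in Bdf1/2-AID, 0 to 3 higher in ΔBD1/2, 8 to 27 lower and 5 to 23 higher pairs in the other 17 variants, 0 to 7 lower in ΔET against Bdf1/2-AID, 24 to 48 lower and 11 to 35 higher pairs in the other 18 variants, 0 to 4 lower pairs within the 21 variants, 9 to 10 higher by total reads and 2 to 4 lower by own share in Bdf1/2-AID. The other counts stayed at 0, or at 30 in ΔCPS, mNPS/CPS and ΔNPS/CPS. Single genes that changed sign and passed or lost the test were PFK1 in Bdf1/2-AID (1.06 with size factors, 1.51 with TMM), in ΔET against WT PGI1 (0.84 and 1.48), PFK1 (0.84 and 1.505) and PFK2 (0.97 and 1.61) on the same scales and TPI1 (−0.54 with D to F alone), in mET(4) PFK1 (1.03), PFK2 (0.98) and ENO2 (1.01) with TMM and TDH3 (0.44 and 0.43), GPM1 (0.58 and 0.56), ENO2 (0.50 and 0.49) and CDC19 (0.54 and 0.53) with the block and with A to C alone, and in mBD1/2 TPI1 (0.72 with the block), TDH3 (0.70 and 0.71) and GPM1 (0.92 and 0.91). Over settings, 1902 single values kept side and direction, 168 passed newly, 75 no longer passed and 25 changed sign. The cause of these changes was not tested. The lowest T>C count of a library was 11 for PGI1, 17 for PFK1, 18 for PFK2 and 45 or more for the other 7 members.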
